A study of Mus musculus with 2 samples.

Results

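The Mir30 family is a group of microRNA (miRNA) genes that were measured here in whole bladders of newborn mice. Its members were taken by gene symbol as Mir30a, Mir30b, Mir30c-1, Mir30c-2, Mir30d and Mir30e, which are 6 of the 1973 annotated miRNA genes listed in the tables. The choice used no measured value. The group of 2 microRNA-seq libraries came from pups of strain B6NCrl at postnatal day 0, with 1 bladder per library and sex not recorded. The pups came from 1 litter and carried no stated treatment or genetic change, and they are called pup 2 and pup 1 after their labels. With 1 group and no treatment, the data describe the levels of the family and the difference between the libraries of these littermates.

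A miRNA gene is transcribed as a longer RNA whose hairpin is cut into a duplex, and either arm of the hairpin, 5p or 3p, can be loaded into an Argonaute protein. The loaded arm pairs with messenger RNAs mainly through its seed, the bases from position 2 to position 8, and lowers their translation and stability. The miR-30 miRNAs are expressed in many tissues. They are known for roles in kidney podocytes in mice and in the developing kidney of frogs, for repression of Snai1, a factor that drives epithelial cells towards a mesenchymal state, and for repression of the matrix protein gene Ctgf in the heart.

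The sequences below show what the members have in common and where they differ. The RefSeq miRNA table (GRCm38.p6) matched 4 of the 6 members, and the sequences of Mir30a, Mir30e, Mir30c-1 and Mir30c-2 are printed 5′ to 3′ with the seed in capitals.
miR-30a-5p: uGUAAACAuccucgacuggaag
miR-30e-5p: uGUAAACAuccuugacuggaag
miR-30c-5p (Mir30c-1 and Mir30c-2): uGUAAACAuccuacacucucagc
miR-30a-3p: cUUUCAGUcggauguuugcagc
miR-30e-3p: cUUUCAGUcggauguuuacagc
miR-30c-1-3p: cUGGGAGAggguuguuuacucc
miR-30c-2-3p: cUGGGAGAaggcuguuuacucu
The 5p arms of these 4 genes had 1 seed, GUAAACA, in common. The 3p arms fell into 2 seed groups, UUUCAGU for Mir30a and Mir30e and UGGGAGA for both Mir30c genes. Counted from 1 at the 5′ end, miR-30e-5p differed from miR-30a-5p at 1 base (C13U) and miR-30e-3p from miR-30a-3p at 1 base (G18A). Both differences lie outside the seed. miR-30c-5p differed from miR-30a-5p at 5 of 22 bases, all of them from position 13 onwards.

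The Mir30c genes are copies, and their hairpins are shown because the shared stretch bears on how their reads could be counted. In capitals is the 23-base 5p arm that both hairpins contain.
Mir30c-1 hairpin (chr4:120769534-120769622, minus strand, GRCm38.p6): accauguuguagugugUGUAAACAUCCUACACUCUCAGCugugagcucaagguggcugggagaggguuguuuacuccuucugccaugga
Mir30c-2 hairpin (chr1:23291701-23291784, plus strand, GRCm38.p6): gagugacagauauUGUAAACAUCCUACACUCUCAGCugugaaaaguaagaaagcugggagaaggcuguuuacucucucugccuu
The longest run in common between these hairpins was 28 bases, the 5p arm included, and the labels give a size range under 30 nucleotides for the RNA. The 3p arms of the copies differed at 3 of 22 bases, which are G9A, U12C and C22U from miR-30c-1-3p to miR-30c-2-3p. The longest run in common between the Mir30a and Mir30e hairpins was 18 bases, shorter than a mature arm. Between a Mir30c hairpin and either of those it was 12 bases. How reads with a mismatch, or no longer than 18 bases, were assigned between Mir30a and Mir30e was not tested. The tables list reads that mapped to several places in a total of their own, at 24.8% of reads in pup 2 and 22.7% in pup 1. These reads were 27.5 times the summed Mir30 counts in pup 2 and 26.9 times in pup 1. How many of them came from miR-30c-5p was not tested. The levels of the Mir30c genes below are those of reads assigned to 1 gene, so they are uncertain and may be too low by an unknown amount.

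The members lie in 3 neighbouring pairs on GRCm38. Mir30a (ENSMUSG00000065405.2) is at chr1:23272269-23272339 on the plus strand, and Mir30c-2 (ENSMUSG00000065567.1) lies 19361 bases beyond it on the same strand, in an exon of the long non-coding gene Gm27028. No gene other than Mir30a itself is annotated over Mir30a in GENCODE M21. Mir30e (ENSMUSG00000065409.1), at chr4:120772606-120772697, and Mir30c-1 (ENSMUSG00000065490.1) are on the minus strand, 2983 bases apart. Both lie in introns of Nfyc on its own strand, the gene of a subunit of the CCAAT-binding factor NF-Y. Mir30d (ENSMUSG00000065437.1), at chr15:68341208-68341289, and Mir30b (ENSMUSG00000065476.2), at chr15:68337415-68337510, are on the minus strand with 3697 bases between them. Mir30d overlaps an exon of the long non-coding gene Gm20732 and one of Gm37296, a gene of the annotation class still to be tested by experiment. Mir30b overlaps an exon of Gm26621, annotated as a processed transcript. No other miRNA gene of the tables overlaps a member, and no count fell on the strand opposite to any of the 6 in either library.

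Each level is the gene's count on its own strand per 1000000 such counts over all genes of the library (CPM). Levels are not divided by gene length, since the RNA was of the size of mature arms, which have 22 or 23 bases in the matched members, and the gene counts do not tell the 5p arm from the 3p arm. Pup 2 had 3636650 sense-strand gene counts and pup 1 had 7460621, and a count of 0 leaves room for 0.825 CPM in pup 2 and for 0.402 CPM in pup 1. Without molecular identifiers in the reads, intervals, floors and counting SEs reflect counting error only. As a check of the labelled tissue, Mir143 and Mir145a, miRNAs of smooth muscle, summed to 53.5% of counts in pup 2 and 53.8% in pup 1, and 7 of 7 genes of the epithelial list had counts and summed to 1.63% in pup 2 and 1.67% in pup 1. In whole tissue, fewer cells of a type and less RNA per cell cannot be told apart.

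Together the Mir30 genes took 1.34% ± 0.078 of all sense-strand gene counts (SD, n = 2). The share was 1.39% in pup 2 (exact 95% binomial interval 1.38% to 1.40%) and 1.28% in pup 1 (1.27% to 1.29%). These shares rest on 50568 counts in pup 2 and 95557 in pup 1. The share is one of miRNA counts in which Mir143 dominates, and without Mir143 in the totals the family's share was 2.81%.

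In reads assigned to 1 gene, Mir30e was the most abundant member, at 6939 CPM in pup 2, against 6513 CPM in pup 1. It ranked 18 among all genes of pup 2 and 19 among those of pup 1. It held 50.4% ± 0.67 of the family's counts. Mir30a followed at 3863 CPM in pup 2, against 3646 CPM in pup 1, with rank 25 in pup 2 and rank 26 in pup 1, and 28.1% ± 0.49 of the family. Mir30d was at 3003 CPM in pup 2, against 2563 CPM in pup 1, with rank 30 in pup 2 and rank 35 in pup 1, and 20.8% ± 1.12 of the family. These 3 genes, 1 from each neighbouring pair, therefore carried nearly all of the family's counts, and none of their ranges over the pups overlapped.

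The other members had far fewer assigned reads, and the levels of the Mir30c genes may be too low. Mir30b was at 76.2 CPM in pup 2, from 277 counts, and at 59.8 CPM in pup 1, from 446 counts. Mir30c-1 was at 13.5 CPM in pup 2 (49 counts) and 12.9 CPM in pup 1 (96 counts). Mir30c-2 was at 10.7 CPM in pup 2 (39 counts) and 13.5 CPM in pup 1 (101 counts). The Mir30c copies were the one step of the order that overlapped between the pups, and their order turned between the libraries, with Mir30c-1 at 1.26 times Mir30c-2 in pup 2 (95% counting interval 0.81 to 1.97) and 0.95 times in pup 1 (0.71 to 1.27). Each interval includes a ratio of 1.

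**Figure D1:**
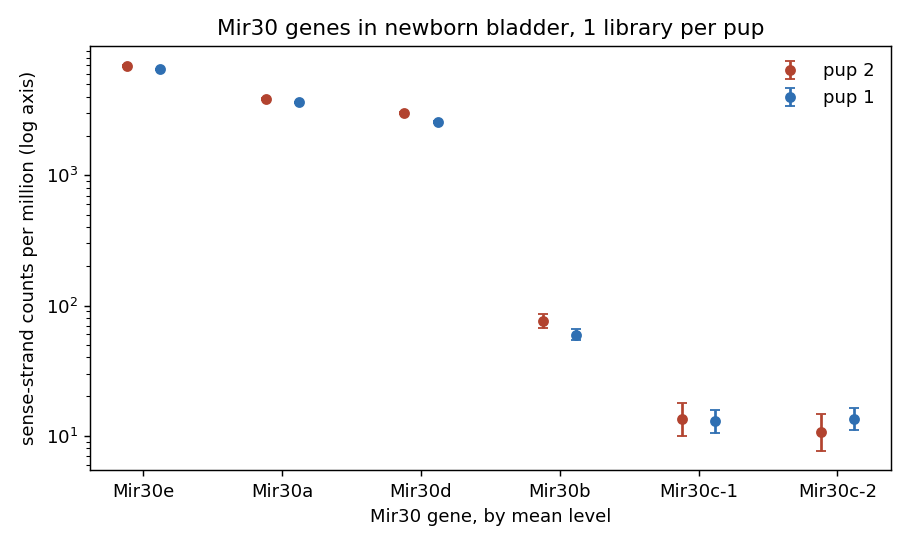
CPM of the 6 Mir30 genes on a log axis, with pup 2 left of pup 1 and bars for the exact 95% binomial interval of each library. Mir30e, Mir30a and Mir30d lie between 2563 and 6939 CPM, Mir30b at 76.2 CPM in pup 2, against 59.8 CPM in pup 1, and the Mir30c genes between 10.7 and 13.5 CPM with overlapping intervals.

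In assigned reads, the steps between the abundant members were small beside the drop to the rest. The place of the Mir30c genes in the order is uncertain, since reads that mapped to several places are left out. Mir30e counts were 1.80 times those of Mir30a in pup 2 (95% counting interval 1.76 to 1.83) and 1.79 times in pup 1 (1.76 to 1.81). Mir30a counts were 1.29 times those of Mir30d in pup 2 (1.25 to 1.32) and 1.42 times in pup 1 (1.40 to 1.45). The intervals of Mir30e to Mir30a overlapped between the libraries, while those of Mir30a to Mir30d lay further apart than counting error. A two-sided exact sign-flip permutation test of such a ratio over 2 pups cannot go below p = 0.5, so the order is given as a description.

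Each neighbouring pair had 1 gene with many assigned reads and 1 with few. The pair of Mir30e and Mir30c-1 held 50.0% of the family's counts in pup 2 and 50.9% in pup 1. The pair of Mir30a and Mir30c-2 held 27.9% in pup 2 and 28.6% in pup 1, and that of Mir30d and Mir30b held 22.1% in pup 2 and 20.5% in pup 1. Mir30e was 511 ± 6.28-fold above Mir30c-1 (SD, n = 2). The fold was 515 in pup 2 (95% counting interval 389 to 696) and 506 in pup 1 (414 to 625). These intervals are far wider than that SD. Mir30a was 315 ± 64.2-fold above Mir30c-2, at 360-fold in pup 2 (95% counting interval 263 to 507) and 269-fold in pup 1 (222 to 331). Mir30d was 41.2 ± 2.44-fold above Mir30b, at 39.4-fold in pup 2 (35.0 to 44.6) and 42.9-fold in pup 1 (39.0 to 47.2). Neighbouring genes were thus counted at levels far apart in both libraries. In the pairs with a Mir30c copy, the lower gene's level may be too low and the fold too high, by an amount that was not tested.

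Unequal counts of neighbours were not particular to the family. All pairs of consecutive miRNA genes on 1 strand within 20 kb were taken, each gene with at least 10 counts summed. Over these 112 pairs, the Mir30 pairs included, the median fold between the mean levels was 7.31, and 44.6% of pairs were over 10-fold. Ranked by that fold, Mir30e over Mir30c-1 was number 4, Mir30a over Mir30c-2 number 6 and Mir30d over Mir30b number 27. In 24 of these pairs, those of both Mir30c genes among them, the lower gene has a mature sequence that another gene has too. Their median fold was 32.6. In the 77 pairs whose lower gene shares none within the RefSeq table, it was 4.78. That table lacks some genes, Mir30b and Mir30d among them, so a shared sequence could be missed. In the other 11 pairs, Mir30d over Mir30b among them, the lower gene's sequence was not matched, and the median fold was 27.8. This is a description with no test.

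**Figure D2:**
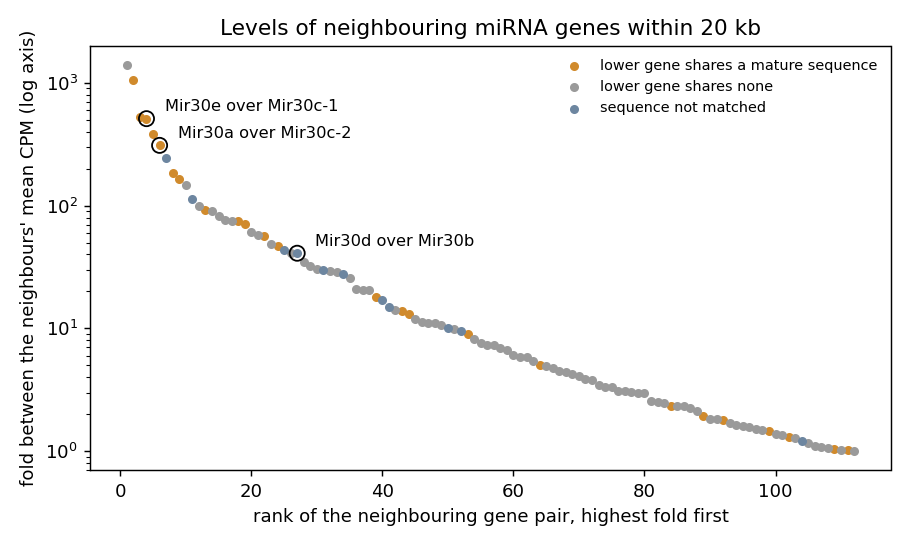
Fold between the mean CPM of consecutive miRNA genes on 1 strand within 20 kb (log axis) against the rank of the pair, coloured by whether the lower gene has a mature sequence in common with another gene. The circled Mir30 pairs stand at ranks 4, 6 and 27 of 112.

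The share of counts at copies was also taken in the Mir26, Mir29 and Mir181 families. In the Mir30 family the members known to share an arm, Mir30c-1 and Mir30c-2, held 0.190% ± 0.023 of the family's counts (SD, n = 2). In the Mir26 family, whose genes lie in Ctdsp genes, the copies Mir26a-1 and Mir26a-2 held 0.168% ± 0.0042, and Mir26b held the rest at 23323 CPM in pup 2, against 20778 CPM in pup 1. In the Mir29 family, known for repression of collagen genes, Mir29b-1 and Mir29b-2 held 1.08% ± 0.086. In the Mir181 family, known from lymphocytes, the copies of Mir181a and Mir181b held 24.1% ± 0.079, led by Mir181a-1 at 353 CPM in pup 2, against 293 CPM in pup 1. The copies' share was thus close in the Mir30 and Mir26 families, higher in the Mir29 family and highest of the 4 in the Mir181 family. The Mir30 share of all counts, 1.34%, lay below that of Mir26 at 2.21% ± 0.18 and above those of Mir181 at 0.188% ± 0.013 and Mir29 at 0.0471% ± 0.0051, with no overlap between the pups. These sums carry the same uncertainty about copies.

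**Figure D3:**
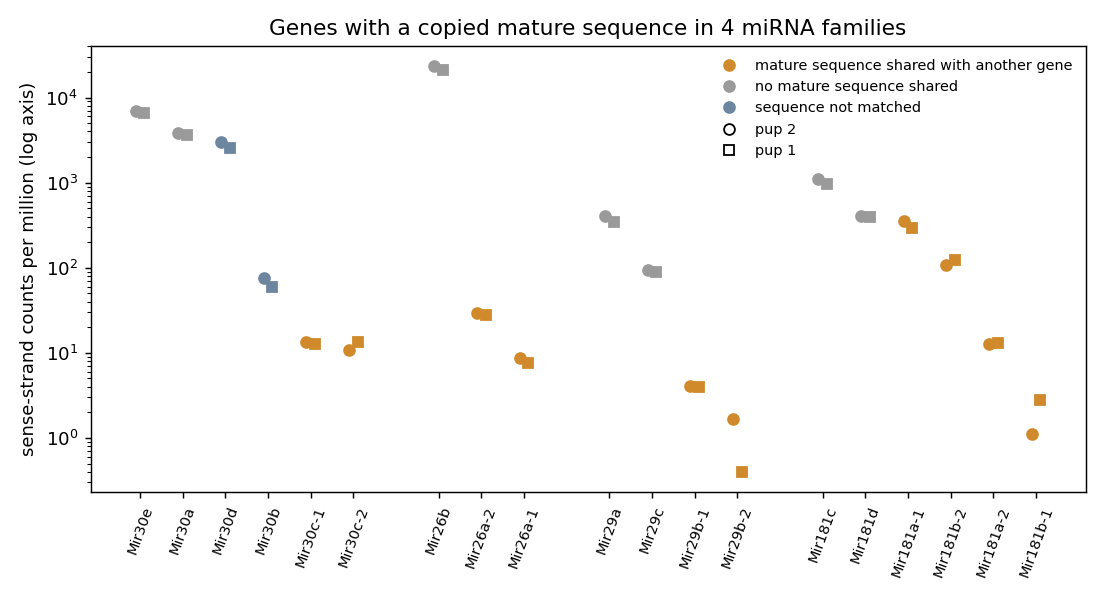
CPM (log axis) of the genes of the Mir30, Mir26, Mir29 and Mir181 families, circles for pup 2 and squares for pup 1, coloured by whether a mature sequence is shared with another gene. The copies are the lowest genes of the Mir30, Mir26 and Mir29 families, while Mir181a-1, at 353 CPM in pup 2, against 293 CPM in pup 1, is near Mir181d.

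Beyond the members, Mir384 was the only gene of the RefSeq table whose mature 5p arm has the seed GUAAACA, and it is printed to show how little of the arm it shares beyond that seed.
miR-384-5p: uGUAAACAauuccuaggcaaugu
It matched miR-30c-5p over the first 8 bases and differed at 12 of the 23. Mir384 was at 2.47 CPM in pup 2 (9 counts) and 1.47 CPM in pup 1 (11 counts), below every Mir30 gene in both libraries. Mir6958, whose 5p arm has the seed UGGGAGA of the Mir30c 3p arms, had 0 counts in pup 2 and 2 counts in pup 1. No gene outside the family had the 3p seed of Mir30a and Mir30e in that table.

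For each member, the gene outside the family with the closest level was taken as the smallest distance of log2(CPM + 1) over the 2 libraries. Mir196b, a miRNA of a Hox cluster, was closest to Mir30e (distance 0.023), at 6972 CPM in pup 2, against 6614 CPM in pup 1. Mir214, a miRNA of mesenchyme, was closest to Mir30a (0.18), and Mir139 was closest to Mir30d (0.19). Mir192, known from kidney and gut, was closest to Mir30b (0.058), at 74.2 CPM in pup 2, against 57.9 CPM in pup 1. Mir466n was closest to Mir30c-1 (0.078) and Mir669h to Mir30c-2 (0.16). With 2 libraries this says only that the levels were close.

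The libraries of the littermates were then compared gene by gene, as log2 ratios of pup 2 over pup 1 after TMM scaling. All 6 members passed the filter of 10 counts summed. In a two-sided exact conditional binomial test with Benjamini-Hochberg adjustment over the 362 tested genes, 4 of 6 members were higher in pup 2 and none was lower, against 19.1% of all tested genes called higher in pup 2, 13.3% called higher in pup 1 and 32.3% called in either direction. With a minimum of 100 counts the members called were the same 4, against 46.8% of 248 genes. Among the 68 tested genes with a mean of at least 1000 CPM, 79.4% were called in either direction and 44.1% as higher in pup 2, and Mir30e, Mir30a and Mir30d are among those genes. The test compares these libraries with counting noise alone and tests no difference between animals.

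Mir30d had the largest ratio of the abundant members, at 3003 CPM in pup 2, against 2563 CPM in pup 1, with a log2 ratio of 0.25 (counting SE 0.017) and an adjusted p of 5.08e-46 in the exact binomial test. Its size was number 10 of the 68 genes with at least 1000 CPM, whose median absolute log2 ratio was 0.104. Mir30e had a log2 ratio of 0.12 (counting SE 0.011, adjusted p = 1.28e-23 in the exact binomial test) and Mir30a one of 0.11 (counting SE 0.015, adjusted p = 9.11e-12), and they were numbers 33 and 34 of the same 68. Mir30b, the genomic neighbour of Mir30d, had a log2 ratio of 0.37 (counting SE 0.11, adjusted p = 0.00368 in the exact binomial test). Mir30c-1, at 0.09 (counting SE 0.25), and Mir30c-2, at -0.31 (counting SE 0.27), had adjusted p of 0.876 and 0.459, so a difference of that size was not detectable at these counts.

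The median log2 ratio over the members was 0.11, beside 0.03 over all 362 tested genes. The family sum was at 13905 CPM in pup 2, against 12808 CPM in pup 1, a log2 ratio of 0.14 (counting SE 0.0079). All 4 called members stayed called and higher in pup 2 with total count scaling and with DESeq2 size factors, while the split of calls over all genes moved. It was 69 genes higher in pup 2 and 48 in pup 1 with TMM, 59 in pup 2 and 64 in pup 1 with total counts, and 56 in pup 2 and 69 in pup 1 with DESeq2 size factors. None of the 4 reached 2-fold, while 2.76% of tested genes were called at that size. With the common dispersion of these libraries (biological coefficient of variation 13.2%) in edgeR's exact test, 0 members were called, and 0 had an unadjusted p under 0.05, against 1.38% of all tested genes called. That dispersion was estimated with the 2 pups treated as replicates of each other. It therefore contains the difference under test, which makes calls hard to reach. The lowest unadjusted p of a member in edgeR's exact test was 0.205, for Mir30b.

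Within the family, the ratio of Mir30d lay further from those of Mir30a and Mir30e than counting error. The log2 ratio of Mir30d exceeded that of Mir30a by 0.145 (counting SE 0.023) and that of Mir30e by 0.137 (counting SE 0.021), and these differences do not depend on scaling. Mir30e and Mir30a differed by 0.0082 (counting SE 0.019) and Mir30b and Mir30d by 0.12 (counting SE 0.11). The spread of such differences between littermates was not tested, since there is 1 library of each. Over the 6 blood cell marker genes, of which 3 were called higher in pup 2 and none lower, the sum was 2357 CPM in pup 2 and 1201 CPM in pup 1, and their part in the Mir30 ratios was not tested. Mir122 of hepatocytes was at 31.6 CPM in pup 2, against 112 CPM in pup 1, and its part was likewise not tested. The 5 neuronal marker genes with a row were at 0 counts in both libraries, and they belong to families with copies.

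**Figure D4:**
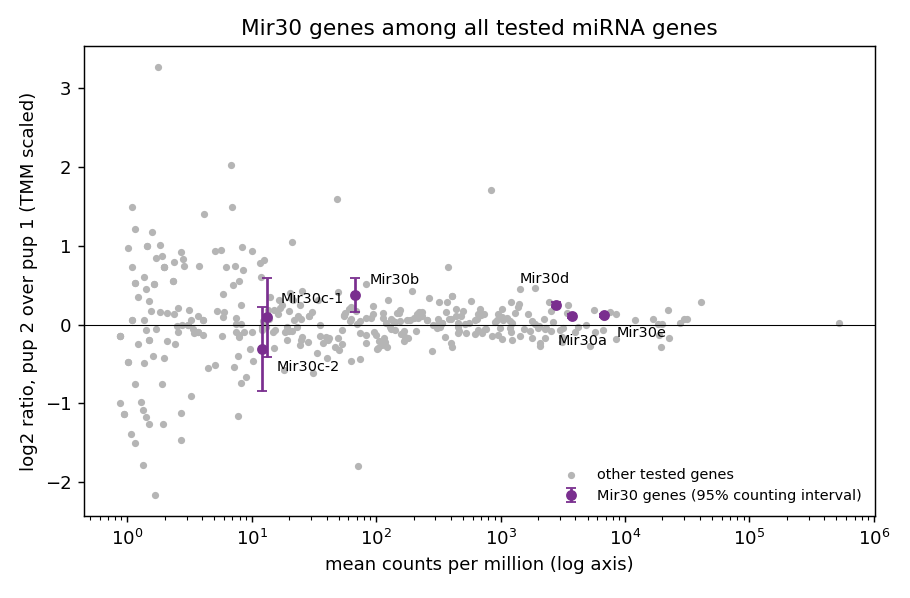
Log2 ratio of pup 2 over pup 1 (TMM scaled) against mean CPM (log axis) for the 362 tested genes, with the Mir30 genes in purple and bars for the 95% counting interval. Mir30d at 0.25 and Mir30b at 0.37 lie above 0, Mir30e and Mir30a close to 0.1, and the bars of both Mir30c genes cross 0.

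Other miRNAs are also known for roles in epithelial state and matrix, and a list of 16 such genes was set beside the family. Of these, 12 were tested, and 4 were called higher in pup 2 and 1 lower in the exact binomial test, beside the 32.3% called over all tested genes. The median log2 ratio of the 12 was 0.07, beside 0.03 over all tested genes. The genes called higher were Mir21a, a miRNA induced in fibrosis, Mir205 of basal epithelium, Mir29a and Mir192. Mir21a was the most abundant, at 31783 CPM in pup 2, against 30637 CPM in pup 1 (log2 ratio 0.08), and Mir29a was at 408 CPM in pup 2, against 341 CPM in pup 1 (log2 ratio 0.28). The gene called lower was Mir200c, of the miR-200 family that represses the Zeb factors, at 2115 CPM in pup 2, against 2428 CPM in pup 1 (log2 ratio -0.18). Mir429 of the same family was at 4761 CPM in pup 2, against 4874 CPM in pup 1, and did not pass the test. With total count scaling and with DESeq2 size factors the same 4 genes were called higher, and Mir429 and Mir200b joined Mir200c as lower in pup 2. Mir133a-1, Mir133a-2, Mir133b and Mir29b-2 had under 10 counts summed.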

How the data were processed

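MicroRNA-seq libraries of bladders from 2 newborn littermates, 1 library each, form 1 group. The authors deposited 1 table of whole-number counts per miRNA gene for each library, not normalized or pooled. Reads were aligned to mm10 with GENCODE M4 genes, per the README text deposited with the tables; the aligner and counter were not given in the sources used here. Both-strand counts equalled the sum of the other columns for every gene, so the strand columns were read from the values. The 4 lines of unassigned reads stayed out of library sizes. Multi-mapped reads are such a line.

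Symbols and positions came from GENCODE M21 on GRCm38 by Ensembl gene number (1894 of 1973 IDs matched), and sequences from RefSeq. The deposited ID of Mir30a has an older version number than that of M21. Library sizes were TMM scaled over genes with at least 10 counts summed (edgeR 4.0.16, R 4.3.3); log2 ratios used a prior count of 0.5. An exact conditional binomial test with Benjamini-Hochberg adjustment (threshold 0.05, scipy 1.17.1) was used because 1 library a pup leaves no residual degree of freedom. It was also run on simulated data, which cannot show that calls between these libraries go beyond the usual spread between littermates. Between the libraries, the chi-square over genes came to 48.3 per degree of freedom, well above sampling noise. Families, lists, named genes and tests were chosen with earlier results of these data known. The named genes were the members, genes with a seed in common, the closest gene in level to each member, the Mir26, Mir29 and Mir181 families, and the epithelial and matrix list; Mir6958 entered by its seed. Alternatives were scaling by total counts or by size factors of DESeq2 1.42.0, edgeR's exact test, both-strand counts, a prior count of 2, count minimums of 1 and 100, a minimum of 2-fold, Mir143 or the Mir30c copies left out, all reads as the denominator, and each pup left out. Pups differ in depth, 3636650 sense-strand counts in pup 2 against 7460621 in pup 1. Python 3.11.15, numpy 2.4.6, pandas 2.3.3 and matplotlib 3.10.9 did the rest.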

Additional observations from a re-analysis of the deposited data

How the results depend on the processing

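The share of the Mir30 family, 1.34%, became 2.81% with Mir143 left out of the totals and 0.873% with all reads as the denominator. The log2 ratio of the family sum, 0.14, became 0.12 with total count scaling and 0.11 with DESeq2 size factors, in the same direction. The 4 members called between the libraries became 0 in edgeR's exact test with the common dispersion and 0 at a 2-fold minimum. The common dispersion came from the same 2 libraries taken as replicates, so it contains the difference under test. They stayed at 4 with total count scaling, DESeq2 size factors, both-strand counts, no count filter and a minimum of 100 counts. With the Mir30c copies left out, the cluster shares moved by less than the spread between the pups. The copies held only 0.190% of the family's counts, so leaving them out could hardly move the shares. Both-strand counts could not move them or the folds between neighbours, since no member had opposite-strand counts, and leaving out 1 of 2 pups moves a mean by less than the SD by construction, so these alternatives say nothing about stability. With Mir143 left out of the totals, all 6 member levels were higher by more than that spread. A smaller total raises the CPM of every other gene, so this rise was fixed in advance. No member's log2 ratio changed direction or its side of the threshold with another scaling, both-strand counts or a prior count of 2. The prior count does not enter the test, so it could not move a member across the threshold. Both-strand counts reached the members only through the library totals and the set of tested genes. Over all genes, the calls were 117 in the exact binomial test, 5 with the common dispersion and 10 at a 2-fold minimum. No paired analysis was possible because the samples form 1 group of 2 pups. The ratio between the pups has no value with either pup left out. The Mir30c genes rest on 39 to 101 counts a library, which limits the precision of their values. These values may also be too low, since reads that mapped to several places are left out of them.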

Other observations

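Copies of a mature sequence were looked at over all genes. In the RefSeq table, 87 genes of the count tables have a mature sequence identical to one of another gene, and 829 do not. At least 10 counts summed fell on 50.6% of the genes with such a copy and on 34.5% of those without. At a mean of 1000 CPM or more there were 2 genes with a copy and 60 without. The highest gene with a copy was Mir16-1 at 1892 CPM. The genes with a copy include Mir30c-1, at a mean of 13.2 CPM, and Mir30c-2, at 12.1 CPM. Among genes with at least 10 counts the median level was 20.4 CPM with a copy and 62.8 CPM without. Reads that mapped to several places are missing from the gene counts, and how much of this difference they make up was not tested.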
